A study of Mus musculus with 20 samples.

Results

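The guanylate-binding protein (GBP) genes Gbp2 to Gbp11 were examined in primary mouse renal tubular epithelial cells (TECs), the cells that line the kidney tubule. The members were the rows of the deposited gene table whose mouse Ensembl IDs carry these symbols. All 10 were found among 55891 genes. All 10 passed the filter on low counts with 14568 genes tested, several of them only through stimulated libraries, as given below. The cells came from mice of the strain B6.129-Ptprz1tm1Nmo, which carry a targeted allele of Ptprz1, the gene of a receptor-type protein tyrosine phosphatase. Every group therefore carries at least 1 copy of this allele, and no wild-type cells were analysed here. Heterozygous (het) and knockout (KO) cells were either left untreated (control) or stimulated for 24 h with lipopolysaccharide (LPS, 100 ng/mL) and interferon-gamma (IFNγ, 10 ng/mL), with 5 libraries in each of the 4 groups. The cells had been grown in serum with EGF, hydrocortisone and other supplements, so they are cultured TECs and not tissue. The series asks how Ptprz1 bears on TECs at rest and under inflammatory stimulation.

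GBPs are large GTPases of the dynamin superfamily. IFNγ acts through its receptor, the kinases JAK1 and JAK2 and transcription factors such as IRF1 to induce their genes, in immune cells and also in epithelial and endothelial cells. The proteins assemble on the vacuoles of intracellular parasites and on the surface of bacteria that carry LPS, and they help to open the way to caspase-11, inflammasome activation and pyroptosis. Gbp2 and Gbp5 end in a CaaX motif, to which a lipid anchor is attached by prenylation.

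The mouse genes lie in separate clusters. The GENCODE M21 annotation was used here for names, order, gene types, overlaps, coding lengths and transcript sequences. In it the chromosome 3 cluster reads Gbp5, Gbp7, Gbp3, Gbp2b and Gbp2 on the plus strand. The chromosome 5 cluster reads Gbp8, Gbp9, Gbp4, Gbp10, Gbp6 and Gbp11, all on the minus strand. Gbp11 is annotated there as a polymorphic pseudogene and the other members as protein coding. The annotated spans of Gbp8, Gbp9 and Gbp4 overlap, and no source used here gives the strand setting of the counting. Gbp2b (ENSMUSG00000040264), which lies between Gbp3 and Gbp2, is a paralogue outside the 10 members. In the table the chromosome 3 members are Gbp5 (ENSMUSG00000105504), Gbp7 (ENSMUSG00000040253), Gbp3 (ENSMUSG00000028268) and Gbp2 (ENSMUSG00000028270). The chromosome 5 members are Gbp8 (ENSMUSG00000034438), Gbp9 (ENSMUSG00000029298), Gbp4 (ENSMUSG00000079363), Gbp10 (ENSMUSG00000105096), Gbp6 (ENSMUSG00000104713) and Gbp11 (ENSMUSG00000092021).

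The copies differ in how far their reads can be told apart. Of all windows of 31 bases in the annotated transcripts of Gbp10, 84.98% also occur in another gene of the family, and 80.8% occur in Gbp6. For Gbp6 the share found in any other gene of the family is 57.6%. It is 34.3% for Gbp11, 31.1% for Gbp8, 18.3% for Gbp9 and 13.5% for Gbp4. The chromosome 3 members are far more distinct, with 5.64% for Gbp3, 4.85% for Gbp2, 3.69% for Gbp7 and 0.03% for Gbp5. The single values of Gbp6 and Gbp10, and to a lesser degree those of the other chromosome 5 members, therefore depend on how the estimated counts split shared reads.

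The proximal promoters of the chromosome 3 members are shown because they carry the interferon-stimulated response element (ISRE), the site bound by interferon regulatory factors. RefSeq promoters (GRCm38.p6, 250 bases before to 50 after a transcript start) were found for 4 of the 10 members, Gbp2, Gbp3, Gbp5 and Gbp7. In the sequences the capitals mark matches to the ISRE core, searched on both strands as GAAA, any 2 bases and GAAA again. Every match in these genes lies on the minus strand and so reads TTTC, 2 bases and TTTC here. The Gbp2 window is chr3:142620579-142620638, the Gbp7 window chr3:142530258-142530317, the Gbp3 window chr3:142559974-142560039, the Gbp5 window chr3:142496744-142496803 and the Gbp2b window chr3:142594685-142594744, all on the plus strand.
Gbp2: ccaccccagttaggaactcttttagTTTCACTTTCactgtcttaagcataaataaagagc
Gbp7: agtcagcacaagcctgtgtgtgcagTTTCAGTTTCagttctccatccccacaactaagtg
Gbp3: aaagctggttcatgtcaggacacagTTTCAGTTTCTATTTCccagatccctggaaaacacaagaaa
Gbp5: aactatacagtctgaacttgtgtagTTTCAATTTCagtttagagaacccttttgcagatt
Gbp2b: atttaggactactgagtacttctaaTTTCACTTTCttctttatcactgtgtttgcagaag

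All 4 members held at least 1 match, against 3.99% of 27025 genes, and 4 of their 5 promoters did, against 3.44% of 32851 promoters of the same length. The matches of Gbp2, Gbp7 and Gbp3 lie within 60 bases of the start, and that of Gbp5 begins at −165. Gbp3 has 2 overlapping matches in its upstream promoter, and the second promoter listed for it held none. Gbp2b has the same 10 letters as Gbp2, placed farther from its start. The NF-kB motif (held by 8.46% of promoters) was found in Gbp5 and, after the start, in Gbp2. These are matches of letters and not measured sites.

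**Figure D1:**
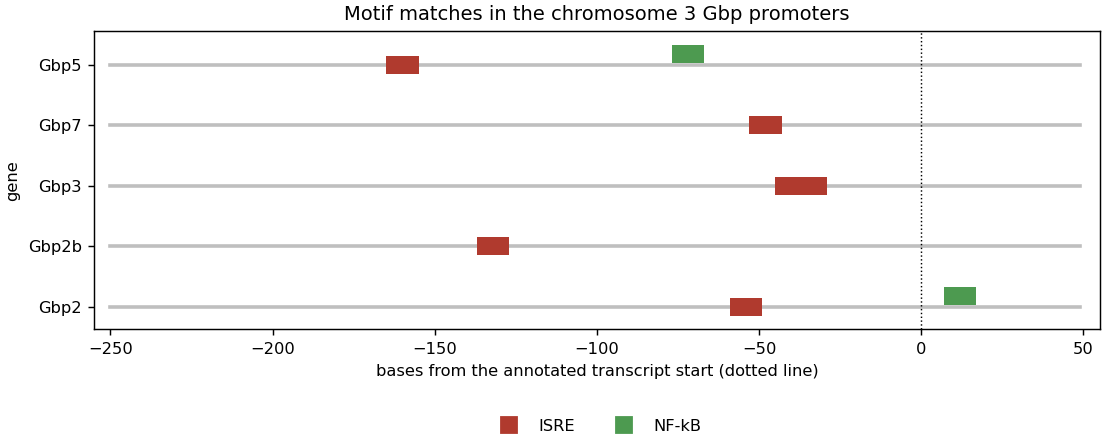
Positions of motif matches in 5 promoters of the chromosome 3 cluster, with the x axis in bases from the annotated transcript start and 1 line per gene. Red boxes are ISRE matches (16 bases long in Gbp3, where 2 overlap) and green boxes NF-kB matches. Each of the 5 lines has an ISRE match, and Gbp5 and Gbp2 also have an NF-kB match.

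Total counts per library were 12899528 to 20411411. Ptprz1, the targeted gene (ENSMUSG00000068748), was counted 16 times in the 10 het libraries together and 15 times in the 10 KO libraries, with 0 to 7 counts in any library, so it does not tell the genotype labels apart at this depth (a count of 0 allows up to 0.134 to 0.219 CPM). Of 10 tubular markers all but Slc34a1 were counted in all 20 libraries, but their levels varied widely. Pax8 ran from 134 to 388 CPM, Cdh16 from 22.9 to 790, Cdh1 from 0.365 to 200 and Epcam from 0.146 to 75.9. Slc34a1, the phosphate transporter of the proximal tubule, was at 0 in 17. The summed 6 fibroblast markers reached 13107 CPM in het control replicate 3 and 11690 CPM in KO LPS+IFNγ replicate 3. The summed tubular markers there were 528 and 676 CPM. Over all libraries Col1a1 reached 7619 CPM, Col1a2 5296 CPM and Pdgfrb 301 CPM. The fibroblast markers Pdgfra, Dcn and Lum reached at most 1.79, 2.57 and 0.112 CPM. The fibroblast sum is thus mostly collagen, and whether it measures fibroblast content was not tested. The summed 11 leukocyte markers ran from 5.12 to 333 CPM, with Cd3e at 0 in all libraries. The highest sums, 333 and 225 CPM, were in the control and stimulated het libraries of animal 9, and the next, 87.8 and 72.0 CPM, in those of animal 1. The labels name 10 animals, of which animals 5 and 7 are listed under both genotypes.

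In 4 libraries the GBP genes went against the label. In 8 of the 10 control libraries the 10 members together held 25.6 to 46.1 CPM (counts per 1000000, scaled between libraries by trimmed means of M values), and in 8 of the 10 stimulated libraries they held 9277 to 22680.4 CPM. The libraries labelled KO control replicate 4 and het control replicate 5 held 2952 and 1014 CPM. The libraries labelled KO LPS+IFNγ replicate 4 and het LPS+IFNγ replicate 5 held 25.3 and 23.3 CPM, which is the level of the other controls. These 4 libraries are both libraries of animal 8 (KO) and both of animal 4 (het). Nos2, the inducible nitric oxide synthase, and Tap1, the peptide transporter of antigen presentation, showed the same 4 exceptions: Nos2 was at 202 and 82.8 CPM in the 2 raised controls and at 0 in the 2 low stimulated libraries, against 1255 to 3563 CPM in the other 8 stimulated libraries and at most 0.219 CPM in the other 8 controls. The summed fibroblast markers, mostly Col1a1 and Col1a2, were at 4911 and 4628 CPM in the libraries of animal 8 and 4287 and 4270 CPM in those of animal 4. Over all genes tested, deviations from group means correlated at −0.30 between the libraries of animal 8 and −0.21 for animal 4. These were the only negative values among the 10 pairs. Why the labels and the values part in these animals was not tested. Results are given for all 20 libraries and for the 16 libraries without animals 4 and 8. Since these 4 libraries were picked for the values of interferon-induced genes, the 16-library values are a description, and their adjusted p-values are not independent support.

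Gbp2 was the most abundant member. In het control cells its level was 9.20, 15.9, 15.3, 9.22 and 481 CPM in replicates 1 to 5, and in KO control cells 19.2, 17.3, 16.1, 1490.2 and 27.0 CPM. In het LPS+IFNγ cells it was 7339, 6790, 5926, 3397 and 12.9 CPM, and in KO LPS+IFNγ cells 6614, 7424, 6834, 13.01 and 11515 CPM. Apart from the libraries of animals 4 and 8, the lowest stimulated library (3397 CPM) was far above the highest control (27.0 CPM). In bulk RNA, fewer cells that express a gene and less RNA per cell cannot be told apart.

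Gbp7 had the highest control level after Gbp2 and the smallest difference on stimulation. Its level was 17.4, 6.44, 6.39, 8.81 and 146 CPM in het control cells and 11.9, 10.99, 7.18, 318 and 10.1 CPM in KO control cells. It was 1027, 686, 642, 652 and 6.77 CPM in het LPS+IFNγ cells and 649.8, 661, 709.6, 8.93 and 760.4 CPM in KO LPS+IFNγ cells. Outside animals 4 and 8 its stimulated level was the steadiest of the family together with that of Gbp3, with a coefficient of variation over 8 libraries of 17.8% for Gbp7 and 17.7% for Gbp3. Gbp3 ran from 1.38 to 4.66 CPM in the 8 controls and from 973 to 1586 CPM in the 8 stimulated libraries.

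Gbp5, the member best known for promoting NLRP3 inflammasome assembly in macrophages, was close to absent in control cells. It had 0 counts in 6 of the 8 controls outside animals 4 and 8 and 2 counts in each of the others. In stimulated cells it was 587, 306, 147, 213 and 0.10 CPM in het replicates 1 to 5 and 216, 427, 291, 0 and 629 CPM in KO replicates 1 to 5. Its stimulated levels differed up to 4.30-fold between the 8 libraries, against 1.60-fold for Gbp7.

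On chromosome 5, Gbp6 was the most abundant member in stimulated cells, while Gbp9 was ahead of it in control cells. In control cells it was 0.804, 0.255, 0.164, 0.205 and 148 CPM in het replicates 1 to 5 and 0.408, 0.217, 0.467, 373 and 0.657 CPM in KO replicates 1 to 5. In stimulated cells it was 1275, 1945, 1359.7, 1573 and 0.156 CPM (het) and 1648, 2336, 2310.2, 0.388 and 4672 CPM (KO). KO LPS+IFNγ replicate 5 stood highest, and without it the other 7 stimulated libraries outside animals 4 and 8 lay between 1275 and 2336 CPM.

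Gbp10, which shares most of its sequence with Gbp6, was not counted in 7 of these 8 controls and reached 444 to 1700.4 CPM in the 8 stimulated libraries. Gbp4 had 0 to 3 counts per library in the 8 controls and 361 to 837 CPM after stimulation, and Gbp9 ran from 1.21 to 4.74 CPM in the 8 controls and from 496 to 1108 CPM after stimulation. Gbp8 was scarce at 27.0 to 102 CPM in the 8 stimulated libraries. Its highest control value outside animals 4 and 8, 2.10 CPM from 41 counts, was in het control replicate 4, the library with the highest leukocyte marker sum (333 CPM), and the other 7 controls had 0 to 10 counts. The part of leukocyte RNA in that value was not tested.

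Gbp11 was the scarcest and the most variable member. It had no count in any control outside animals 4 and 8, where a count of 0 allows up to 0.134 to 0.219 CPM, and its stimulated levels were 16.2, 4.16, 2.08, 16.2 and 0 CPM in het replicates 1 to 5 and 5.97, 6.86, 12.96, 0 and 29.97 CPM in KO replicates 1 to 5. The coefficient of variation over the 8 stimulated libraries was 77.2%, the highest of the 10 members. Gbp2b gave 3 counts in all 20 libraries together, 2 in KO LPS+IFNγ replicate 5 and 1 in het LPS+IFNγ replicate 4, while the neighbouring Gbp2 had 193236 and 53280 counts in these libraries.

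**Figure D2:**
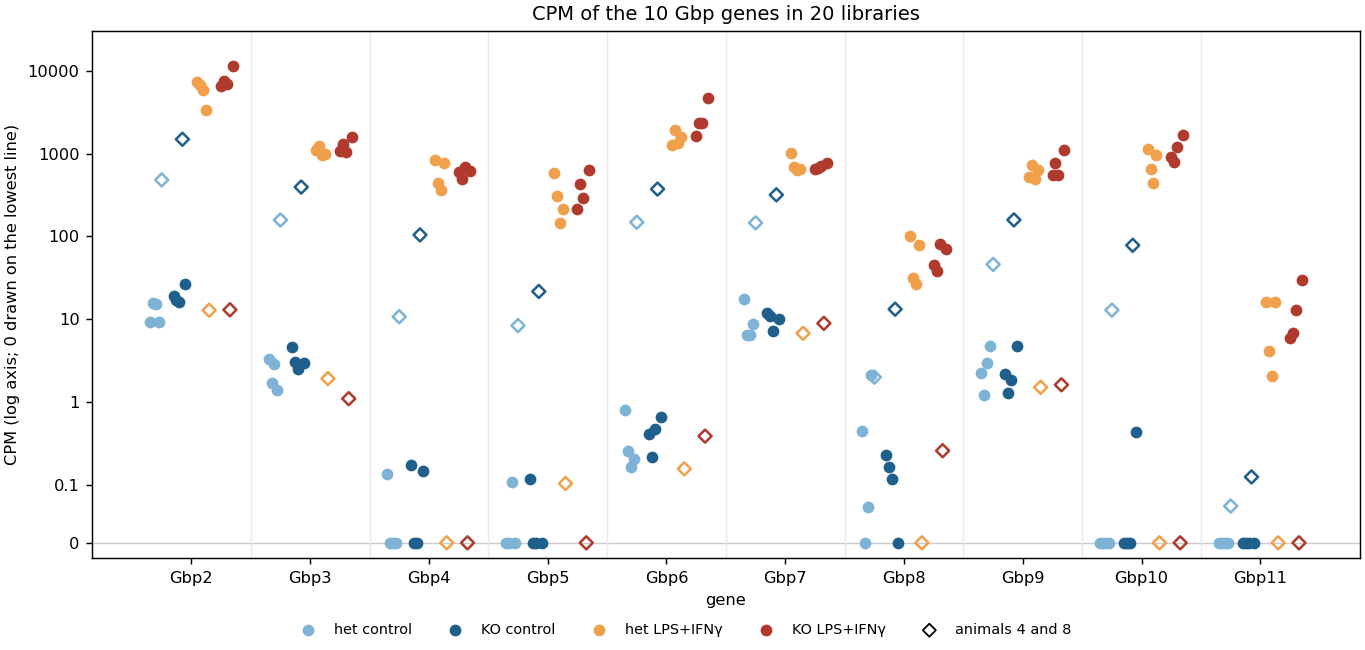
CPM of each member (x axis) in all 20 libraries (y axis, log scale, with 0 drawn on the lowest line), coloured by group. Filled circles are the 16 libraries of 8 animals, and open diamonds are the libraries of animals 4 and 8, whose controls lie above the other controls for 9 members (Gbp8 of het control replicate 5 lies among them) and whose stimulated libraries lie no higher than the highest of the other controls for all 10.

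With all 20 libraries, the stimulated groups did not separate from the control groups for any member at the adjusted threshold. In edgeR's quasi-likelihood test the log2 difference between LPS+IFNγ and control in het cells was 5.47 ± 1.92 (SE) for Gbp2 (adjusted p = 0.205), 4.03 ± 1.44 for Gbp7 (adjusted p = 0.211) and 8.75 ± 1.76 for Gbp11 (adjusted p = 0.105). All 10 differences were positive, with a median of 5.57 against −0.02 over all genes. Gbp4, Gbp5, Gbp6, Gbp8, Gbp10 and Gbp11 were near 0 in most controls and passed the low-count filter through the stimulated libraries. For these members a positive difference was favoured by the filter and is no independent support. In KO cells the values were 4.37 ± 1.82 for Gbp2 (adjusted p = 0.476), 2.96 ± 1.37 for Gbp7 (adjusted p = 0.531) and 8.46 ± 1.68 for Gbp11 (adjusted p = 0.321), again with 10 of 10 positive and a median of 4.44.

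By edgeR's test 0 of 10 members were called in either genotype, and 0% of the 14568 genes tested were called higher. At an unadjusted p under 0.05 there were 10 members in het and 7 in KO cells, where 13.6% and 8.97% of all genes fell. These counts were 2 and 2 with limma-voom (11.8% and 7.76% of all genes) and, in the fit blocked by animal, 2 and 3 (16.1% and 9.46%). DESeq2 called 5 members higher in het cells (Gbp2, Gbp7, Gbp8, Gbp9 and Gbp11; background 2.99%) and Gbp11 in KO cells (background 0.755%), and limma-voom called none (background 0%). One library of animal 4 or 8 was enough to move the count: without het LPS+IFNγ replicate 5, edgeR called 3 members in het cells (Gbp5, Gbp8 and Gbp11; background 4.05%), and without KO LPS+IFNγ replicate 4 it called Gbp11 in het (background 0.812%) and in KO cells (background 0.982%).

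In the 16 libraries without animals 4 and 8, all 10 members were higher after LPS+IFNγ in both genotypes by edgeR's test, where 5.67% of 14630 genes were called higher in het and 4.81% in KO cells (1.48% and 0.95% were called lower). DESeq2 also called 10 of 10 in both (background 7.81% and 6.49%). Gbp2 differed by 8.88 ± 0.41 (SE) on the log2 scale in het cells (adjusted p = 3.4e-09) and by 8.67 ± 0.41 in KO cells (adjusted p = 4.8e-09). The highest of the 10 adjusted p-values was 0.0030 in het and 0.0026 in KO cells, both for Gbp11. For all 10 members every stimulated library lay above every control of its genotype, which held for 7.23% of all genes tested in het and 10.7% in KO cells. The libraries of animals 4 and 8, left out for such values, broke this order, so it is no independent support. The members that passed the filter only through stimulated libraries add no support of their own either. The same 10 of 10 were called when the animal was added as a block (background 10.7% and 8.39%) and when animals 5 and 7, listed under both genotypes, were left out as well (background 3.61% and 2.92%).

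The size of the difference spread widely over the family. From counts pooled over the 4 libraries of a group, Gbp7 was 73.3-fold higher in het and 69.1-fold higher in KO cells, Gbp3 454-fold and 377-fold, and Gbp2 490.1-fold and 414-fold. Gbp9 was 209-fold and 311-fold higher. Gbp8 was 86.9-fold higher in het and 433-fold higher in KO cells, and its het controls included the library with the high leukocyte markers. Gbp6 was 4058-fold and 6470-fold higher (6469.7 before rounding).

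For the members that were all but silent in control cells the fold is bounded by few control counts. Gbp5 rested on 2 control counts in each genotype, with a ratio of 12036 in het cells (95% counting interval 3332 to 99395) and 12884 in KO cells (3566 to 106391). Gbp4 rested on 3 control counts in het cells, with a ratio of 15225 (5209 to 73833), and on 5 in KO cells, with a ratio of 7915. By its estimated counts Gbp10 was at least 20215-fold higher in het cells, with 0 control counts (limit of 3 counts over the group). It was 12753-fold higher in KO cells over 6 control counts. Gbp11 was at least 243-fold higher in het and at least 307-fold higher in KO cells. The intervals and limits cover counting error only and leave out how shared reads were split. Gbp6, which shares most of the sequence of Gbp10, had 29 counts in the same het controls. The limit of Gbp10 is therefore not a firm lower bound.

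The difference was also read animal by animal. In the 6 animals outside 4 and 8 that gave both a control and a stimulated library of 1 genotype, the summed CPM of the family was 415-fold (animal 1), 502-fold (animal 2), 317-fold (animal 3), 506-fold (animal 6), 351-fold (animal 9) and 492-fold (animal 10) higher in the stimulated library. The lowest and the highest of these were both from KO animals. In animals 4 and 8 the stimulated library was lower, by 43.4-fold and 117-fold.

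Levels can be compared between genes only per length, so CPM was divided by kilobases of coding length. Coding lengths lay close together, from 1575 bases for Gbp8 to 2172 for Gbp5. The parts of transcripts outside the coding sequence were left out, and whether the order holds with them was not tested. Over the 8 stimulated libraries Gbp2 led at 3950.1 ± 1266 CPM per kb (SD, n = 8), followed by Gbp6 at 1167 ± 599, Gbp3 at 628 ± 111, Gbp10 at 532 ± 208, Gbp7 at 378 ± 67.3, Gbp9 at 359 ± 109, Gbp4 at 316 ± 85.6, Gbp5 at 162 ± 82.3, Gbp8 at 37.5 ± 17.3 and Gbp11 at 6.36 ± 4.91. Gbp2 was above Gbp6, and Gbp6 above Gbp3, in 8 of 8 libraries. The middle of the order was not separated beyond the spread between libraries: Gbp3 was above Gbp10 in 5 of 8, Gbp10 above Gbp7 in 6 of 8, Gbp7 above Gbp9 in 5 of 8 and Gbp9 above Gbp4 in 4 of 8. Gbp4, Gbp5, Gbp8 and Gbp11 followed each other in 8 of 8.

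The order in control cells was different. Over the 8 controls outside animals 4 and 8, Gbp2 was at 9.14 ± 3.21 CPM per kb (SD, n = 8) and Gbp7 at 5.18 ± 1.92, and Gbp2 was above Gbp7 in 7 of 8. Gbp3 (1.51 ± 0.54) and Gbp9 (1.43 ± 0.75) followed, with Gbp3 above Gbp9 in 5 of 8, and the other 6 members were below 0.25 CPM per kb on average. Gbp6, second in stimulated cells, was sixth here at 0.22 ± 0.13 CPM per kb.

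The make-up of the family thus differed between the states, while the share of Gbp2 did not differ beyond its spread. Gbp2 held 49.6 ± 12.2% (SD, n = 8) of the counts of the 10 members in control and 50.7 ± 6.09% in stimulated libraries. Gbp7 held 30.6 ± 9.68% in control and 5.55 ± 1.30% in stimulated libraries, and the ranges did not overlap (22.0 to 51.9% and 3.35 to 7.36%). Gbp6 moved the other way, from 1.19 ± 0.61% to 15.2 ± 3.397% (ranges 0.587 to 2.39% and 9.14 to 20.6%), and so did Gbp10, from 0.119 ± 0.336% to 7.13 ± 2.01%, and Gbp4, from 0.146 ± 0.204% to 4.65 ± 1.82%.

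The summed shares of the clusters differed too, though the members of a cluster did not move together. The chromosome 3 members held 88.9 ± 6.82% (SD, n = 8) of the family's counts in control and 67.5 ± 5.54% in stimulated libraries. Of these members only Gbp7 held a lower mean share after stimulation. Gbp3 held 8.61% and 8.79% on average, and Gbp5 0.086% and 2.49%. On chromosome 5 the mean shares of Gbp9 (8.30% and 4.95%) and Gbp8 (1.37% and 0.452%) were lower after stimulation. Those of Gbp4, Gbp6, Gbp10 and Gbp11 were higher. Stimulated het replicate 4 stood apart with 56.7% on chromosome 3 and 36.6% for Gbp2, the lowest Gbp2 share of the 8, and that library had a leukocyte marker sum of 225 CPM. The lowest control share of chromosome 3, 73.4%, was in the control library of the same animal. Other libraries did not follow the leukocyte sum. The next lowest stimulated shares of chromosome 3, 63.9% and 64.8% in KO replicates 5 and 3, came with sums of 5.12 and 5.47 CPM. Stimulated het replicate 1, with a sum of 72.0 CPM, held 72.1%. Whether other cells in the cultures have a part in the shares was not tested. No test was made on these shares, since each is bound to the others.

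**Figure D3:**
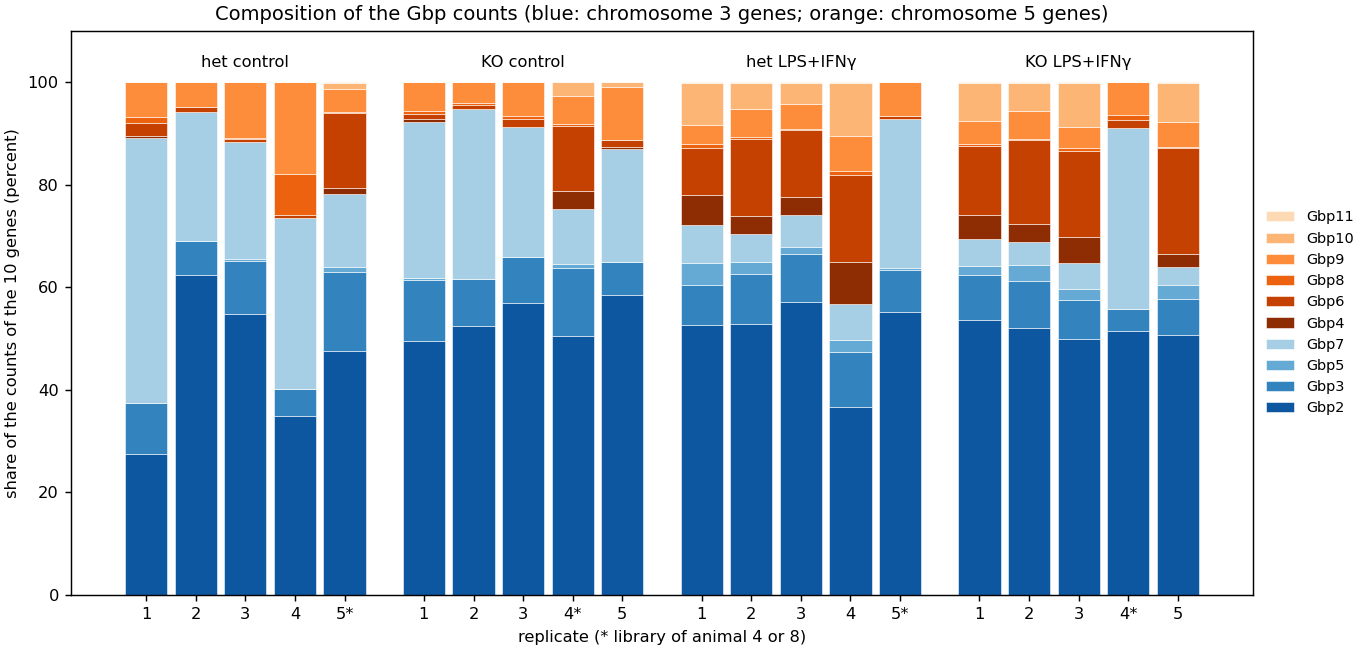
Share of each member in the counts of the 10 genes (y axis, percent) in each library (x axis, replicate numbers within the 4 groups), with chromosome 3 members in blue and chromosome 5 members in orange. Gbp7, the palest blue, fills 22.0 to 51.9% of the 8 unstarred control bars and 3.35 to 7.36% of the 8 unstarred stimulated bars, and it fills 10.8% and 14.4% of the starred control bars of animals 8 and 4, between these ranges.

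In the raised controls of animals 4 and 8 the members were not raised to one degree. In KO control replicate 4, Gbp7 was at 44.0% of its mean over the 8 stimulated libraries, Gbp3 at 33.8%, Gbp9 at 23.8%, Gbp8 at 22.4%, Gbp2 at 21.4%, Gbp4 and Gbp6 at 17.4%, Gbp10 at 8.01%, Gbp5 at 6.15% and Gbp11 at 1.06%. In het control replicate 5 the shares were lower for every member, from 20.2% for Gbp7 and 13.5% for Gbp3 through 6.90% for Gbp2 to 1.32% for Gbp10 and 0.471% for Gbp11. In both libraries Gbp7 and Gbp3 led and Gbp11 was last. The summed leukocyte markers in these libraries were 14.2 and 5.78 CPM, inside the range of the other libraries.

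The make-up of both raised controls matched neither state throughout. Gbp6 held 12.6% of the family's counts in KO control replicate 4 (exact 95% interval 12.3 to 12.9%) and 14.6% in het control replicate 5 (14.1 to 15.2%), inside its stimulated range. Gbp7 held 10.8% (10.496 to 11.1%) and 14.4% (13.9 to 14.9%), which lies between its stimulated and its control range. Gbp10 (2.65% and 1.27%) and Gbp5 (0.734% and 0.828%) also lay between their ranges. Gbp4 did so in het control replicate 5 (1.06%) and was inside its stimulated range in KO control replicate 4 (3.54%). Gbp3 (13.4% and 15.6%) lay above both its ranges. Other genes of the response stood at other fractions of their stimulated mean in these libraries, with Tap1 at 49.7% and 29.97% and Nos2 at 8.30% and 3.397%.

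**Figure D4:**
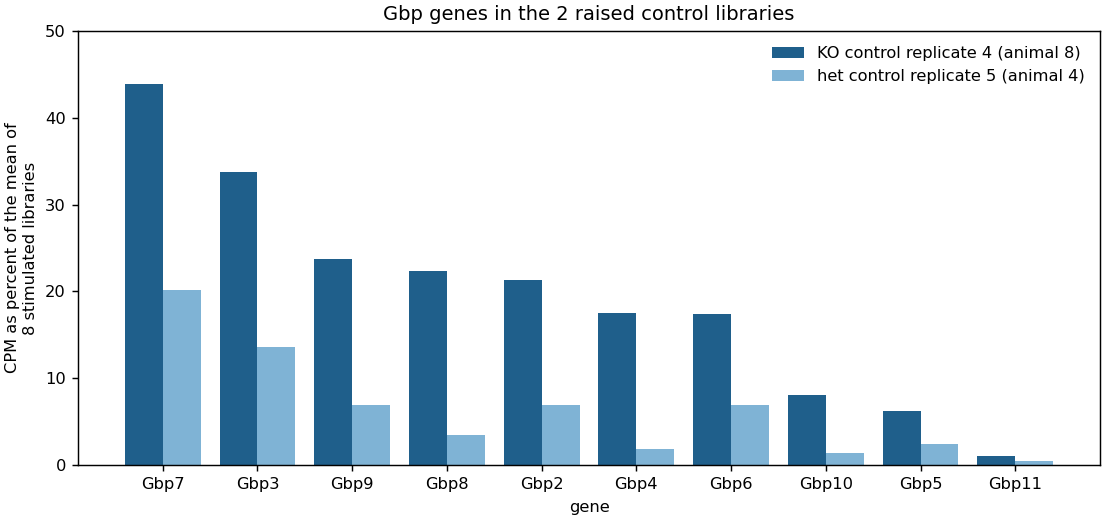
CPM of each member in KO control replicate 4 (dark bars) and het control replicate 5 (light bars) as percent of its mean over the 8 stimulated libraries outside animals 4 and 8 (y axis), with the members (x axis) ordered by the dark bars. The dark bars fall from 44.0% for Gbp7 to 1.06% for Gbp11, and each light bar is lower than its dark partner.

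KO and het cells were then compared within each state. In the 16 libraries all 9 leukocyte markers tested were lower in KO than in het cells by edgeR. The median log2 difference was −3.45 in stimulated cells (9 at an unadjusted p under 0.05) and −4.03 in control cells (8 at an unadjusted p under 0.05). The shares of all genes under this p are given with the members below. By edgeR and DESeq2, 0 of the markers were called. The high het sums were those of animals 1 and 9. The other het libraries held 9.36 and 6.18 CPM when stimulated (KO 5.12 to 10.3 CPM). As controls they held 22.8 and 11.5 CPM (KO 11.7 to 19.2 CPM). The part of the leukocyte markers in the GBP differences was not tested. In LPS+IFNγ cells the log2 difference (KO minus het, edgeR, 20 libraries) was 0.47 ± 1.59 (SE) for Gbp2 and 0.83 ± 2.12 for Gbp6, with adjusted p-values of 1.00 for both, and it was positive for 7 of 10 members, with a median of 0.33. Single libraries turned this direction: without KO LPS+IFNγ replicate 5 it was positive for 3 of 10 (median −0.06), without het LPS+IFNγ replicate 5 for 5 of 10 (median −0.01), and without KO LPS+IFNγ replicate 4 for 10 of 10 (median 0.64). In the 16 libraries the same differences had far smaller errors, 0.47 ± 0.29 for Gbp2 (95% interval −0.16 to 1.09, adjusted p = 0.748) and 0.83 ± 0.36 for Gbp6 (0.06 to 1.61, unadjusted p = 0.036, adjusted p = 0.748). Gbp7 differed by −0.11 ± 0.28 (−0.70 to 0.48). The Gbp6 level of KO LPS+IFNγ replicate 5, 4672 CPM, stood above the 1275 to 2336 CPM of the other 7 libraries.

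No member was called between the genotypes in stimulated cells by edgeR with 20 libraries, where 0% of all genes were called in each direction, and 0 of 10 had an unadjusted p under 0.05. In 16 libraries 0 of 10 were called (background 0%) and 1 of 10, Gbp6, had an unadjusted p under 0.05, as 5.38% of all genes did. In none of the 10 members did the 4 KO and 4 het stimulated libraries separate, against 1.65% of genes tested. DESeq2 and limma-voom also called 0 members with 20 libraries. The 16-library interval of Gbp2 reaches 1.09 on the log2 scale, so these values do not show that the genotypes are alike.

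In control cells the 20-library differences were positive for all 10 members (median 1.46, edgeR), with Gbp2 at 1.56 ± 1.62 (SE, adjusted p = 1.00), and the library labelled KO control replicate 4, at 1490.2 CPM of Gbp2, is among the KO libraries. Without that library the Gbp2 difference was −2.42 (adjusted p = 0.937 by edgeR), and without the raised het control replicate 5 it was 4.66 (adjusted p = 0.789). In the 16 libraries Gbp2 differed by 0.68 ± 0.30 (95% interval 0.05 to 1.32, unadjusted p = 0.037, adjusted p = 0.892), from 9.20 to 15.9 CPM in het and 16.1 to 27.0 CPM in KO cells, and 7 of 10 members were positive. By edgeR with 20 libraries 0 of 10 members were called (background 0%) and 0 had an unadjusted p under 0.05, and DESeq2 and limma-voom called 0. With 16 libraries 0 were called (background 0%) and 1 of 10, Gbp2, had an unadjusted p under 0.05, as 5.29% of all genes did.

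The response to LPS+IFNγ was not called different between the genotypes for any member. The difference between the KO and the het response was −1.10 ± 2.25 (SE) for Gbp2 with 20 libraries (edgeR, adjusted p = 1.00) and −0.21 ± 0.41 with 16 (95% interval −1.10 to 0.67, adjusted p = 1.00). By edgeR no member was called and none had an unadjusted p under 0.05 in either set, where 0% of all genes were called, and DESeq2 and limma-voom called 0 with 20 libraries. The Gbp2 difference was 2.88 without KO control replicate 4 and −4.204 without het control replicate 5 (adjusted p = 1.00 for both).

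**Figure D5:**
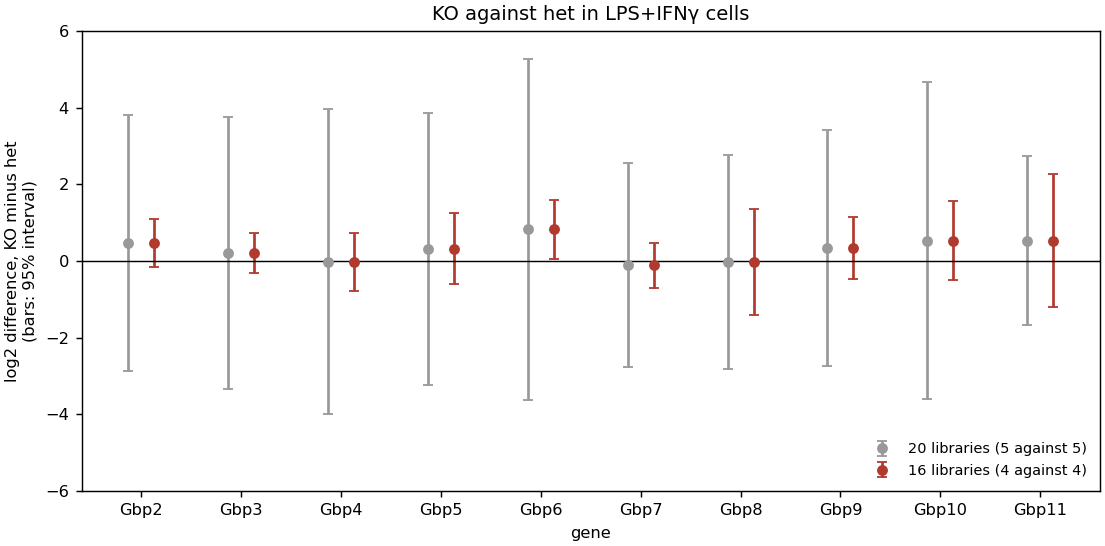
Log2 difference between KO and het LPS+IFNγ cells (y axis) for each member (x axis) from edgeR, with 95% intervals as bars, grey for 20 and red for 16 libraries. The points of both sets nearly coincide, the red intervals are narrower, and only the red interval of Gbp6 (0.06 to 1.61) lies off 0, with an adjusted p of 0.748.

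Genes that work upstream of the GBPs or beside them were read in the same fits. In the 20 libraries none of the genes of these lists was called by edgeR, where 0% of all genes were. In the 16 libraries edgeR called 5.67% of all genes higher after stimulation in het and 4.81% in KO cells. The 15 genes tested of the IFNγ receptor and its signalling had medians of 3.87 and 3.81 on the log2 scale. The medians over all genes were −0.03 and −0.01. Of the 15 genes, 11 were called higher in both het and KO cells. Among them were Irf1 (5.01 ± 0.32 and 4.98 ± 0.32, SE), the transcription factor IRF1, Socs1 (4.196 ± 0.71 and 4.26 ± 0.71), the feedback inhibitor of JAK kinases, and Irf2 (1.24 ± 0.22 and 1.01 ± 0.22), a regulator related to IRF1. Of 10 tested genes of the LPS receptor and its adaptors, 3 were called higher in het and 2 in KO cells (background 5.67% and 4.81%). The adaptor Myd88 was higher by 0.82 ± 0.20 and 1.18 ± 0.20 and the co-receptor Ly96 by 0.65 ± 0.18 in het cells, while Ly96 differed by 0.64 ± 0.18 in KO cells (adjusted p = 0.053, edgeR).

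The immunity-related GTPases, which act with the GBPs on pathogen vacuoles, moved in the same direction. In the 16 libraries 8 of 8 tested were called higher in both genotypes (edgeR, background 5.67% and 4.81%), with medians of 7.97 and 7.97. Irgm1 was higher by 4.47 ± 0.23 (SE) in het and 4.43 ± 0.23 in KO cells, and Igtp by 7.61 ± 0.34 and 7.63 ± 0.34. Downstream of the GBPs, 6 of 8 tested inflammasome and pyroptosis genes were called higher in het and 5 of 8 in KO cells (same background). Casp1 was higher by 2.95 ± 0.36 and 3.01 ± 0.37 and Gsdmd, the pore former of pyroptosis, by 3.23 ± 0.39 and 3.45 ± 0.40. The number called was not compared between the genotypes by a test.

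The machinery that places GBPs on membranes was not called higher. Of 10 genes of the ATG8 conjugation system, which loads GBPs onto vacuoles, 0 were called higher by edgeR in the 16 libraries (background 5.67% and 4.81%). In het cells 1 was called lower, Map1lc3a at −0.64 ± 0.12 (SE), where 1.48% of all genes were called lower. The medians of the 10 genes were −0.08 and 0.00. At an unadjusted p under 0.05 there were 3 in het and 2 in KO cells, near the share of all genes (20.5% and 16.4%), and DESeq2 called 2 lower in het and 0 in KO cells. Of 9 prenylation enzymes edgeR called 0 in either direction, with medians of 0.16 and 0.02, 2 and 0 genes at an unadjusted p under 0.05, and 1 gene called lower by DESeq2 in het cells. Of the tubular, leukocyte, fibroblast and endothelial markers tested, edgeR called 0 in either genotype, with 1 leukocyte marker in KO cells at an unadjusted p under 0.05, which DESeq2 called lower. The share of all genes that DESeq2 called lower is not given here, so its counts in this paragraph cannot be read against it.

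Across the 20 libraries, among 11262 named genes whose log2 CPM averaged 1 or more, those whose pattern was nearest to that of the summed CPM of the family were Igtp, Ifi203, Psmb9, H2-Q7 and Ciita. Likeness was the root mean square difference of log2 CPM after centring, 0.60 for Igtp, 0.74 for Ifi203, 0.76 for Psmb9, 0.80 for H2-Q7 and 0.89 for Ciita. Igtp, one of the immunity-related GTPases above, ran from 5.46 to 16.01 CPM in the 8 controls and from 1300.5 to 2615 CPM in the 8 stimulated libraries, and was at 34.9% and 17.3% of its stimulated mean in the 2 raised controls. Psmb9, a subunit of the immunoproteasome, was at 44.9% and 23.6%. H2-Q7, an MHC class I gene, was at 63.2% and 39.3%, above every GBP gene, and Ciita, the activator of MHC class II genes, at 17.5% and 7.81%.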

How the data were processed

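RNA from 20 libraries was measured as estimated counts per gene, deposited by the authors as whole numbers in 20 columns, all of them used. Listed in the submitters' processing notes, without roles, are Salmon 1.10.2, DESeq2 1.45.3, FastQC 0.11.9, R 4.4.1 and GRCm39. The sources used here do not say how transcripts were summed to genes, which strand was counted or what was filtered. Symbols (51425 of 55891 IDs), coding lengths and transcript sequences came from GENCODE M21, and promoters from RefSeq (GRCm38.p6).

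Groups and replicate numbers came from the titles. Counts were rounded (no value changed) and tested in R 4.3.3 with edgeR 4.0.16: TMM, filterByExpr, robust quasi-likelihood fit, 4 group means, no block, Benjamini-Hochberg adjustment over all genes, threshold 0.05. The test code was also run on simulated counts with a fixed spread, no animal pairing and no libraries against their label. That run does not show how the tests behave on the libraries studied here. CPM is per 1000000 TMM-scaled counts. The alternatives were DESeq2 1.42.0, limma-voom 3.58.1, DESeq2's size factors, other filters, an animal block, libraries left out, and copies summed. The animal IDs in the labels pair the libraries: deviations from group means correlated at −0.30 to 0.62 in 10 pairs, above 0.1 in 8. Whether cultures of 1 animal were separate is not stated, and p-values reflect library-to-library spread that may be technical. Counts per library (12899528 to 20411411) set the counting precision. The intervals of the folds and of the shares in single libraries cover counting error only. The edgeR intervals of log2 differences also include the spread between libraries.

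The text names all 10 members, Gbp2b, Nos2 and Tap1, the 5 genes nearest in pattern and, from each list of 98 symbols in all (97 found), up to 4 genes of lowest p. Members and lists were chosen with earlier results of these data known.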

Additional observations from a re-analysis of the deposited data

Results flagged for a closer look

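In each group of 5 libraries, the highest or lowest was set apart where its gap to the next exceeded 0.71 of the group's range. For independent, normally spread values chance gives this in about 1 of 20 groups. The members share their libraries, differ together and are plain CPM, so the number set apart cannot be read against that rate. Of 44 groups tested (10 members and their sum in 4 groups), 24 were set apart, 11 in KO control, 10 in het control, 2 in KO LPS+IFNγ and 1 in het LPS+IFNγ cells, and every library concerned was from animal 4 or 8. In KO control cells it was replicate 4, with 1490.2 CPM for Gbp2, 394 for Gbp3, 104 for Gbp4, 21.7 for Gbp5, 373 for Gbp6, 318 for Gbp7, 13.2 for Gbp8, 158 for Gbp9, 78.1 for Gbp10, 0.125 for Gbp11 and 2952 for the sum. In het control cells it was replicate 5, with 481 CPM for Gbp2, 158 for Gbp3, 10.7 for Gbp4, 8.40 for Gbp5, 148 for Gbp6, 146 for Gbp7, 45.9 for Gbp9, 12.9 for Gbp10, 0.056 for Gbp11 and 1014 for the sum. Among stimulated libraries Gbp3 in het replicate 5 (1.93 CPM) and Gbp4 (0 CPM) and Gbp7 (8.93 CPM) in KO replicate 4 were set apart. The Gbp11 values rest on 2 and 1 counts. Gbp8 in het control replicate 5 (2.00 CPM) was not, since het control replicate 4 held 2.10 CPM.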

How the results depend on the processing

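The count of members called by LPS+IFNγ was 0 in both genotypes with 20 libraries and moved with the libraries and the tool. With DESeq2 it was 5 in het and 1 in KO cells. Without animals 4 and 8 it was 10 and 10, and so it was there with an animal block, with DESeq2's size factors, with DESeq2's test and without animals 5 and 7 as well (the last 3 chosen after seeing the data). Leaving out 1 library at a time gave 0 to 3 in het and 0 to 1 in KO cells. Another scaling or filter, limma-voom, the animal block with 20 libraries (0 and 0) and leaving out animals 5 and 7 alone gave 0. The block changed no other call, but moved the genes called higher in the 16 libraries from 829 to 1560 in het and from 704 to 1228 in KO cells. The KO against het counts and the difference of responses stayed at 0 under every alternative run. The Gbp2 difference in control cells (1.56) was −2.42 and that of the responses (−1.10) was 2.88 without KO control replicate 4; without het control replicate 5 they were 4.66 and −4.204. The share of Gbp2 in stimulated cells (50.9% het, 51.6% KO) stayed within its spread under each alternative run on it. The log2 values of the copies summed on chromosomes 3 and 5 were 5.16 and 5.93 in het and 4.13 and 4.83 in KO cells with 20 libraries, and 8.34 and 9.86 in het and 8.29 and 10.67 in KO cells with 16. Depth limits Gbp4, Gbp5, Gbp10 and Gbp11 in control cells and Gbp2b throughout.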
